A study of Mus musculus with 8 samples.

Results

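Bivalent promoters are start sites at which the nucleosomes carry H3K4me3, a mark of promoters laid down by the COMPASS and MLL methyltransferases, together with H3K27me3, the repressive mark of Polycomb repressive complex 2. In stem cells they are known for CpG islands of developmental regulators that are silent but can be switched on later, when one of the marks is lost. The promoter intervals described here were the wild-type H3K4me3 intervals that the deposited tables place at a promoter and at a CpG island, that were shorter than 5000 bp and that overlapped a wild-type H3K27me3 interval by at least 1 bp. They numbered 1848 of the 23368 wild-type H3K4me3 intervals and of the 11281 such intervals at CpG-island promoters. The other 9433 CpG-island promoter intervals had no wild-type H3K27me3 and served as a comparison.

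The cells were mouse neuronal stem cells negative for p16Ink4a and p14Arf in both groups, and made to carry stably either H3.3 of wild-type sequence or H3.3K27M, a form with methionine in place of lysine 27 that blocks Polycomb repressive complex 2. H3K4me3, H3K27ac (found at promoters and enhancers in use), H3K27me3 and input were sequenced after chromatin immunoprecipitation, giving 8 samples with 1 library per genotype and mark. The 6 immunoprecipitated libraries were used. The transduced cells were grown with EGF and bFGF, and the labels do not say whether a line was 1 clone or how much transgene it made.

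With 1 library per group no difference has a replicate check and no p-value is given. Intervals in parentheses are exact binomial 95% limits of shares, or rank limits of medians, and they cover counting error only. Neighbouring promoters are not independent. The files give no total tag number, so depth is unknown. Each enriched interval carries the authors' mean and highest tag density in bins of about 32 bp. No density is given outside the intervals, so a mark without an interval may have lain below the calling limit. Of 12 neural stem cell markers 11 carried H3K4me3 and H3K27ac in both genotypes. H3K4me3 was also found in each genotype at 7 of 8 neuron markers (3 with H3K27ac in wild type and 1 in K27M), 2 of 5 endothelial, 1 of 5 fibroblast and 1 of 5 oligodendrocyte markers, and at 0 of 6 microglial and 0 of 4 epithelial markers. Chromosome 15 stood apart in both genotypes. Its 115 members had a median wild-type H3K4me3 density of 71.3 against 51.7 elsewhere, and members made up 26.7% of its CpG-island promoters against 16.0%. The share of members with H3K27me3 in K27M was 34.8% there and 35.4% elsewhere.

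The members sat in CpG-rich sequence, as CpG-island promoters do. The RefSeq promoter table (build GRCm38.p6, 250 bases before to 50 after a start site) held 1250 promoters whose start site lay in a member. They had a median of 23 CpG dinucleotides per 300 bases, against 24 in the other CpG-island promoter intervals and 7 over all 32851 promoters of the table. The medians were 23 both in promoters that had lost H3K27me3 in K27M and in those that had kept both marks. The CpG count was part of the choice through the CpG islands, so it is given as a description. The 4 promoters below are shown as 1 example of each outcome in K27M, chosen after their values were seen among genes known in neural cells, with each CG in capitals.
Kcnk12 (chr17:87797945-87798244, minus strand): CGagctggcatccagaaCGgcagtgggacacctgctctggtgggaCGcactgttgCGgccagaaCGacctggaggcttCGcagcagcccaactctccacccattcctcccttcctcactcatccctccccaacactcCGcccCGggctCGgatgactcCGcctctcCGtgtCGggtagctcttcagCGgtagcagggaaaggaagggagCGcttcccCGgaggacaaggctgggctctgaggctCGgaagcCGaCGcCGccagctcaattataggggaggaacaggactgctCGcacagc
Hrh3 (chr2:180104358-180104657, minus strand): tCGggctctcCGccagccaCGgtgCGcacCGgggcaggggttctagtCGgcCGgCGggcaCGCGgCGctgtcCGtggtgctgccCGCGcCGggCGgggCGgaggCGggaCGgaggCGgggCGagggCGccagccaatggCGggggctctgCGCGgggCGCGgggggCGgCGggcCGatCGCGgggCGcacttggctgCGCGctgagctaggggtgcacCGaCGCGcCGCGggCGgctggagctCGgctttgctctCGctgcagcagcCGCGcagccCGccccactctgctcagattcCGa
Crhr1 (chr11:104132531-104132830, plus strand): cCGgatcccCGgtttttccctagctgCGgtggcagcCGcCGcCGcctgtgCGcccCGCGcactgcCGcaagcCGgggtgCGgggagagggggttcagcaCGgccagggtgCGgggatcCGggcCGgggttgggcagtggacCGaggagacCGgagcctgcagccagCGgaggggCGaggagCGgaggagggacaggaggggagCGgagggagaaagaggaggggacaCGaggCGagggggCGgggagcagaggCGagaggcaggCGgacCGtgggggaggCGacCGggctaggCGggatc
Tunar (chr12:105336743-105337042, plus strand): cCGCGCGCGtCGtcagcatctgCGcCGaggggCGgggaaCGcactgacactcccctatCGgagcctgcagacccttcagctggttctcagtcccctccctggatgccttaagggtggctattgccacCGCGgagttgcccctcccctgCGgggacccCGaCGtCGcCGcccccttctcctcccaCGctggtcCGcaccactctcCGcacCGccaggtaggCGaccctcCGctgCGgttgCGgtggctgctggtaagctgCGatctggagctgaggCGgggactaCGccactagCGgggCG
Kcnk12 encodes a subunit of tandem-pore potassium channels and carried H3K4me3 alone in K27M. Hrh3 encodes the histamine H3 receptor of neurons and carried both marks. Crhr1 encodes the receptor of corticotropin-releasing hormone and carried H3K27me3 alone. Tunar encodes a long noncoding RNA of neural tissue and carried neither. The CG counts of the 4 windows were 20, 47, 31 and 30.

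At the Kcnk12 promoter shown above the wild-type H3K4me3 interval of 1080 bp had a density of 38.6 and the K27M interval one of 70.9, while the H3K27me3 interval of 8999 bp had a density of 20.2 in wild type and no counterpart in K27M. At the Hrh3 promoter H3K4me3 stood at 38.6 in wild type and 56.4 in K27M, and H3K27me3 at 26.1 and 7.43 over 22399 and 20599 bp. The Crhr1 promoter had an H3K4me3 density of 20.0 in wild type and no K27M interval, with H3K27me3 at 12.2 and 4.06 over 91199 and 9799 bp. At Tunar the wild-type densities were 25.1 for H3K4me3 and 11.3 for H3K27me3, and K27M had no interval of either mark. None of these 4 intervals carried H3K27ac in either genotype. Over all members with these outcomes, in the same order, the median wild-type H3K27me3 densities were 6.30, 10.1, 12.2 and 5.56. Kcnk12, Hrh3 and Tunar thus lay well above the medians of their outcomes and are not typical of them.

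Most members lost their H3K27me3 interval in K27M and very few lost H3K4me3. Of the 1848 members 1159 (62.7%, 60.5 to 64.9) carried H3K4me3 without H3K27me3 in K27M, the outcome that would be read as resolved to active. Both marks were kept at 611 (33.1%, 30.9 to 35.3). H3K27me3 alone was found at 43 (2.33%, 1.69 to 3.12) and neither mark at 35 (1.89%, 1.32 to 2.62). Among all 2914 wild-type H3K4me3 intervals on wild-type H3K27me3, at promoters or not, the 4 outcomes took 62.1, 30.3, 3.02 and 4.63%. The 1848 members are among these 2914, so the shares had to lie close and their nearness shows little. The share with neither mark was still lower at the members.

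A K27M H3K27me3 interval met 654 members (35.4%, 33.2 to 37.6), against 18.6% of all wild-type H3K27me3 intervals. These 2 shares are unlike in measure, since a whole H3K27me3 interval can be met away from the member. Counted by whole interval, 51.8% of those that touched a member were met. Median wild-type H3K27me3 density was 7.37 over members and 4.97 over all intervals. A K27M H3K4me3 interval met 1770 members (95.8%, 94.8 to 96.6), against 85.9% of all wild-type H3K4me3 intervals and 99.2% of the other CpG-island promoter intervals. Both outcomes rest on the lists' own limits, since the 5th percentile of H3K27me3 density was 3.54 in wild type and 2.02 in K27M. With 1 floor of 3.54 for H3K27me3 and of 18.9 for H3K4me3 in both genotypes, 78.1% had H3K4me3 alone and 18.2% both marks.

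The rule gathered intervals of 2 sorts, those inside an H3K27me3 domain and those at its edge. H3K27me3 covered 1016 members wholly and 832 in part, 375 of them by under 25% of their length. Wild-type H3K27ac, which the rule did not use, was found at 86 of the 1016 (8.47%, 6.83 to 10.4) and at 665 of the 832 (79.9%, 77.0 to 82.6). Of the 375 members covered least, 347 (92.5%) carried it, against 88.5% of the other CpG-island promoter intervals and 65.4% of all wild-type H3K4me3 intervals. These edge members had a median length of 2509 bp against 828 bp for members wholly inside, and a median H3K4me3 density of 76.2 against 37.9. The other CpG-island promoter intervals, at 2156 bp and 73.6, lay near the edge members in both. The name bivalent therefore describes the overlap in position, and whether both marks sat on the same nucleosomes, alleles or cells was not measured.

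**Figure D1:**
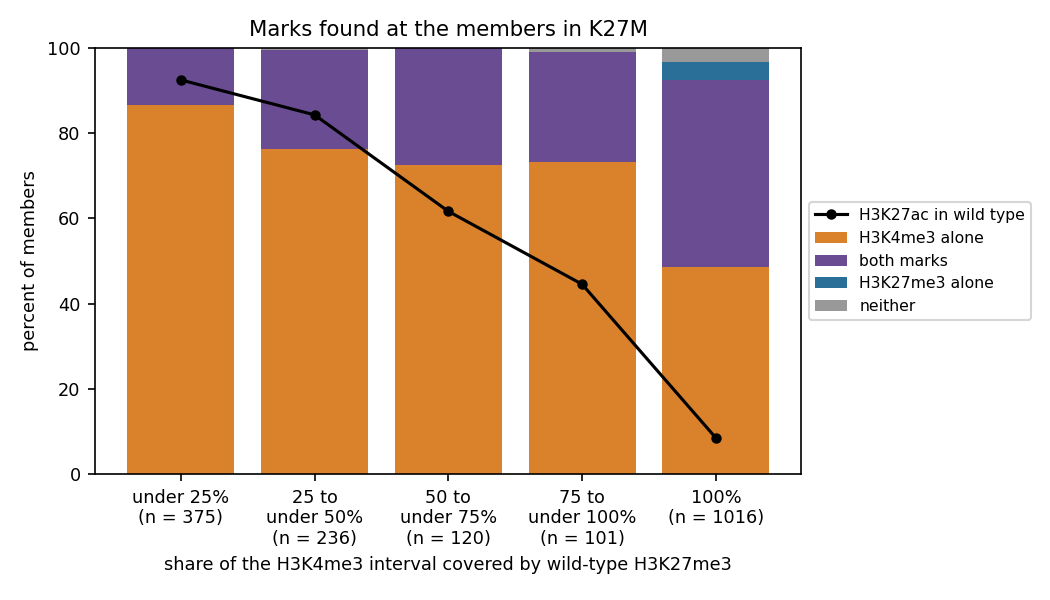
Stacked bars give the percent of members with each combination of marks in K27M, grouped by the share of the H3K4me3 interval that wild-type H3K27me3 covered, and the line gives the percent with wild-type H3K27ac. From members covered by under 25% to those wholly inside, H3K27ac went from 92.5 to 8.47% and the share with K27M H3K27me3 from 13.3 to 48.2%.

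K27M H3K27me3 met 490 of the 1016 members wholly inside (48.2%, 45.1 to 51.4) and 164 of the 832 covered in part (19.7%, 17.1 to 22.6). All 43 members with H3K27me3 alone and 33 of the 35 with neither mark lay wholly inside. Among the 930 members wholly inside and without wild-type H3K27ac, the closest to bivalent promoters in the usual sense, 440 had H3K4me3 alone in K27M, 414 both marks, 43 H3K27me3 alone and 33 neither. In that set the outcomes H3K4me3 alone and both marks were thus nearly equal in number.

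A pair of H3K27me3 domains show inside and edge side by side. On chromosome 8 a domain of 164799 bp with a density of 36.6 reached from the promoter interval of Trappc2l, a gene of the TRAPP vesicle-tethering complex, to that of Acsf3, an acyl-CoA synthetase of mitochondria. Trappc2l was covered by 34.2% and had wild-type H3K27ac at 23.1. In K27M it carried H3K4me3 without H3K27me3 and without H3K27ac. Acsf3 lay wholly inside, had no H3K27ac, and in K27M kept H3K4me3 (61.2 and 69.7) and H3K27me3 (36.6 and 10.3, over 159599 bp). The K27M domain was almost as long as the wild-type one but did not touch the Trappc2l interval.

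On chromosome 7 a domain of 53399 bp with a density of 34.4 held Kash5, a meiotic gene of the nuclear envelope, and touched Tead2, a transcription factor of the Hippo pathway. Kash5 lost its weak H3K4me3 interval (25.9 in wild type) and kept H3K27me3 at 15.5 over 46799 bp. Tead2, covered by 4.58%, carried H3K4me3 at 66.7 and 103 and H3K27ac at 45.7 and 71.0 in wild type and K27M. Over all members 525 shared their H3K27me3 interval with at least 1 other member, in 248 intervals. The members of 177 of these intervals had 1 outcome and those of 71 had more than 1.

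The denser the wild-type H3K27me3, the more often it was still called in K27M. The share of members with K27M H3K27me3 went from 7.03% in the lowest quintile of wild-type density (3.16 to 5.30) to 73.9% (69.1 to 78.2) in the highest (11.2 to 54.0). Among members wholly inside it went from 8.43 to 88.2%. A member counts as met only where the K27M interval touches it, whereas an H3K27me3 interval can be met anywhere along its length. Counted by whole interval, 816 of the 1576 that touched a member (51.8%) were met, against 40.0% of those with a CpG island but no member and 14.0% of the rest. The shares were closer at matched density. In the middle quintile (6.65 to 8.35) the shares were 53.8% (48.2 to 59.3) of intervals with a member, 47.2% (40.9 to 53.6) of those with a CpG island alone and 38.6% (36.1 to 41.1) of the rest. In the next quintile they were 84.2% (79.5 to 88.1), 72.7% (66.2 to 78.5) and 70.4% (67.0 to 73.6). In the highest they were 97.1, 97.6 and 89.5%. Interval length was not matched, and its part in these shares was not tested.

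**Figure D2:**
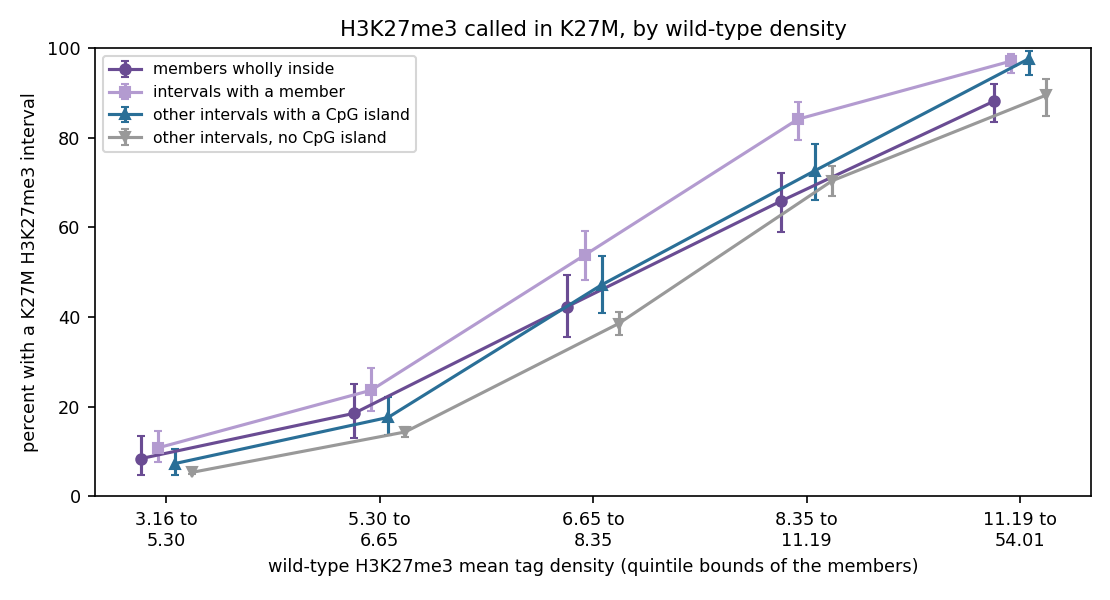
Points give the percent with a K27M H3K27me3 interval in 5 ranges of wild-type H3K27me3 mean tag density, for members wholly inside, for whole H3K27me3 intervals that touch a member, and for other wild-type H3K27me3 intervals with and without a CpG island; bars are exact binomial 95% limits. Members wholly inside climb from 8.43 to 88.2% and intervals with a member from 10.8 to 97.1%; in the range from 8.35 to 11.2 the latter stand at 84.2%, above the 72.7 and 70.4% of the intervals without a member.

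In wild type, H3K27me3 was called less often at the H3K4me3 summit than beside it at members with H3K4me3 alone in K27M. H3K27me3 covered 666 of these 1159 members only in part. At the summit 60.7% of the members with H3K4me3 alone in K27M lay in a wild-type interval, and 67.4% of positions 1000 bp away did. For members that kept both marks the values were 83.3 and 85.7%. At members with H3K27me3 alone they were 100 and 97.7%, and at those with neither mark 97.1 and 91.4%. At members that kept both marks the K27M share fell from 72.8% at 1000 bp to 40.6% at 5000 bp and 21.8% at 10000 bp. In wild type it was 72.7 and 53.9% at the last 2 distances. The members that kept both marks therefore stood in shorter called domains. Their H3K27me3 intervals had a median of 19399 bp in wild type and 7599 bp in K27M, and the K27M interval had a median of 43.4% of the wild-type length. Around members with H3K4me3 alone, K27M H3K27me3 covered at most about 1 position in 10 (9.84% at 5000 bp).

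**Figure D3:**
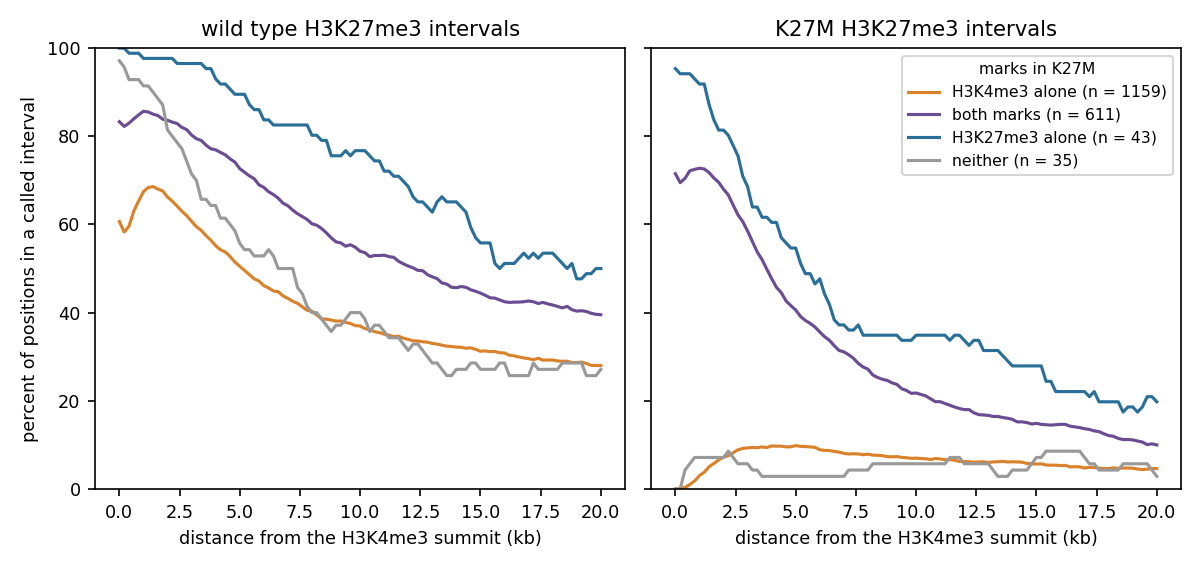
Lines give the percent of positions inside a called H3K27me3 interval against the distance from the H3K4me3 summit, over both directions, for members grouped by their marks in K27M, in wild type (left) and K27M (right). For members that kept both marks the share at 5 kb was 72.7% in wild type and 40.6% in K27M; in the right panel the summit values follow from the grouping.

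At the 654 members with H3K27me3 in both genotypes the density was lower in K27M at 627 and higher at 27. The median log2((K27M + 1)/(wild type + 1)) was -1.14 (-1.20 to -1.10), and 388 members (59.3%) were at least 2-fold lower, against a median of -1.07 and 55.0% over all 3841 such intervals. None was at least 2-fold higher, against 0.651% of all. The direction depended on the scale of the libraries, as equal 5th percentiles gave a median of -0.46 and equal sums of density 1.48. Over all intervals those scalings gave -0.43 and 1.47.

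The 6 lowest ratios at named genes were those of Kcnn1, Lingo3, Ccdc177, Shisa8, Epha10 and Tmem132e. At Kcnn1, a calcium-activated potassium channel, H3K27me3 stood at 20.2 in wild type and 2.63 in K27M (log2 -2.55). Lingo3, of the LINGO family of neuronal membrane proteins, had 20.5 and 2.77. Shisa8, of a family of AMPA receptor regulators, had 26.9 and 4.45, and Epha10, an Eph receptor, 16.0 and 2.36. Grin1, the obligatory subunit of NMDA receptors, had 24.7 and 4.34. All of these, Grin1 included, kept an H3K4me3 interval, and at Grin1 it stood at 38.2 and 53.9.

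High ratios were found at Tmeff2, Il1rapl2, Fgf10, Rspo3 and Sp8. At Tmeff2, a transmembrane protein with follistatin domains, H3K27me3 stood at 5.27 in wild type and 9.95 in K27M, and the called interval was 8999 and 39599 bp long. Il1rapl2, a relative of interleukin receptor accessory proteins, had 3.86 and 6.65. The ligands Fgf10 and Rspo3 (an enhancer of Wnt signalling) had 5.12 and 7.83, and 5.51 and 8.34. Sp8, a zinc-finger factor of limb and forebrain, had 7.65 and 10.3. At the deposited scale the mark was thus denser in K27M at these members, whose wild-type densities lay between 3.86 and 7.65.

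Zfhx4, a zinc-finger homeobox factor, and Calcr, the calcitonin receptor, had less dense H3K4me3 in K27M beside H3K27me3 that was no lower. Their H3K4me3 was 73.2 and 50.4, and 33.1 and 22.9, while H3K27me3 was 11.7 and 11.9, and 8.94 and 11.5. At Fgf10 and Sp8 no K27M H3K4me3 interval was left (25.7 and 22.4 in wild type). At Rspo3 H3K4me3 was 47.7 and 69.6, so a higher H3K27me3 density did not always come with a lower H3K4me3 density.

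H3K4me3 itself was slightly denser in K27M at the members, as over the whole list. The median log2 ratio was 0.42 (0.41 to 0.43) at the 1770 members with an interval in both, 0.37 over all 20063 such intervals and 0.38 at the other CpG-island promoter intervals. It was 0.42 (0.41 to 0.44) at members with H3K4me3 alone in K27M and 0.42 (0.39 to 0.44) at those that kept both marks. These 2 groups were not matched, as their median wild-type H3K4me3 densities were 60.3 and 45.3. Without wild-type H3K27ac their median ratios were 0.46 (0.43 to 0.49) and 0.42 (0.39 to 0.45). At least 2-fold higher were 82 members (4.63%) and at least 2-fold lower none, against 9.00% and 0.0299% of all intervals. The share higher was 2.63% at the other CpG-island promoter intervals and 7.23% at members wholly inside. The count of 82 became 185 for the highest density and 28 with equal sums. No share over all intervals was taken at those 2 settings. With equal sums of density the members' median was 0.01 and that of all intervals -0.03. The interval grew longer in 69.7% of members, against 60.7% of the other CpG-island promoter intervals and 61.9% of all. The share was 72.3% at members with H3K4me3 alone and 64.8% at those with both marks.

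**Figure D4:**
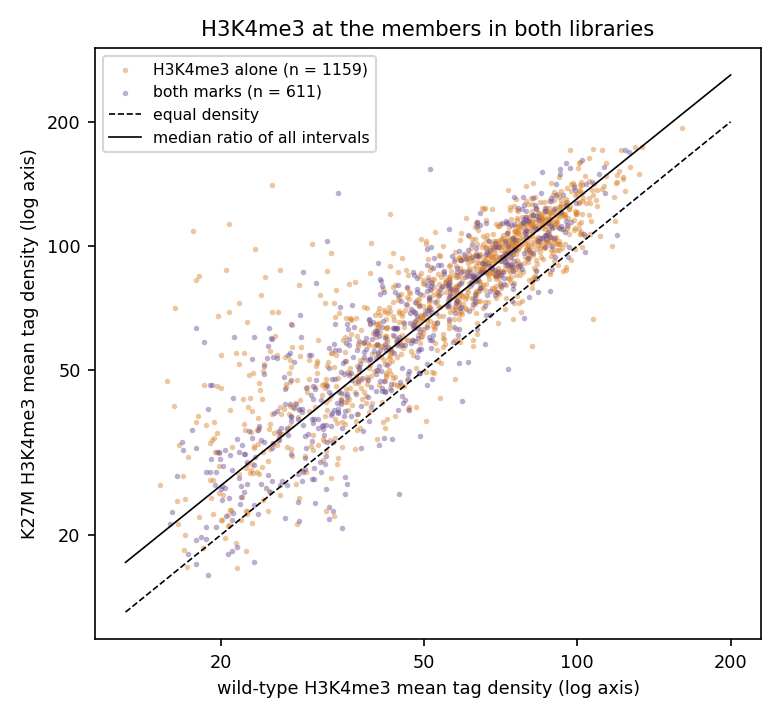
Each point is a member with an H3K4me3 interval in both genotypes, placed by its mean tag density in wild type and in K27M on log axes and coloured by its marks in K27M; the dashed line is equal density and the solid line the median ratio of all intervals. Members with H3K4me3 alone and members with both marks lie along the same line, with medians of 0.42 (log2) each.

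Some of the largest H3K4me3 ratios came from neighbouring wild-type intervals that were 1 interval in K27M. This held for 273 of the 1770 members and for 35 of the 82. Against the joined wild-type intervals 54 members were at least 2-fold higher. The ratios of Ssr1, Efna5 and Sema7a, which ranked among the 6 highest, went from 2.56, 2.39 and 2.15 to 0.48, 0.79 and 0.48, and that of a second Kcnk12 interval, of 209 bp, from 2.06 to 1.00. The Kcnk12 interval shown above had a ratio of 0.86 by itself and took the same K27M interval. Ratios that rested on 1 wild-type interval included Foxf2, a forkhead factor of mesenchyme, with 40.7 in wild type and 91.0 in K27M (log2 1.14), and Slitrk5, a synaptic adhesion protein, with 42.9 and 120 (1.46). Sgcz, a sarcoglycan, had 32.4 and 103 (1.64). Foxf2 and Sgcz kept H3K27me3 and Slitrk5 lost it.

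The 78 members without K27M H3K4me3 were the weak and short ones. Their median wild-type H3K4me3 density was 20.2 where H3K27me3 remained and 24.1 where neither did, against 60.3 at members with H3K4me3 alone and 45.3 at those with both marks, and their median lengths were 317 and 306 bp against 1532 and 1111 bp. Under the lower quartile of the whole wild-type list (22.2) lay 37 of the 78 and 117 of the other 1770. In the lowest quintile of members' H3K4me3 density 80.8% (76.4 to 84.7) kept an interval, against 88.6% (85.7 to 91.1) of the other CpG-island promoters and 65.1% of all wild-type intervals in the same range, and from a density of 44.4 upward all members did. A K27M H3K4me3 interval lay within 1000 bp of 19 of the 78, and another wild-type one within 1000 bp of 37.

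Members that carried H3K27me3 alone in K27M lay in dense and long domains, with a median wild-type density of 12.2 over 28199 bp, whereas those with neither mark had 5.56 over 10599 bp. Dense and long domains were not particular to that outcome. Among members wholly inside without wild-type H3K27ac, those with both marks had 10.3 over 23199 bp. Those with H3K4me3 alone had 6.175 over 11899 bp. Among members with H3K27me3 alone, P4ha2, a subunit of collagen prolyl hydroxylase, had H3K27me3 at 32.5 in wild type and 19.0 in K27M. Prrt4, a proline-rich transmembrane protein, had 19.9 and 19.4. Both members at Onecut3, a homeobox factor of neurons, took the same domain with 22.7 and 16.4. Skor1, a corepressor of dorsal spinal cord interneurons, had 23.4 and 7.92.

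Among the members left with neither mark, Adamtsl5, a secreted relative of the ADAMTS proteases, had a wild-type H3K27me3 density of 19.3. Prdm16, a zinc-finger factor of brown fat and neural stem cells, had 2 such members at 8.63 in a domain of 113399 bp. Neurog1, a bHLH factor that starts neurogenesis, had 1 member with H3K27me3 alone and 1 with neither, since the K27M interval shrank from 26399 to 1599 bp and touched 1 of them. Its H3K4me3 densities in wild type were 19.2 and 20.3. A gene can therefore stand in 2 outcomes, and counts here are of intervals.

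At members with H3K4me3 alone in K27M, new H3K27ac was rare and its share lay near that of the other CpG-island promoters. Over all members H3K27ac was found at 751 (40.6%) in wild type and 639 (34.6%) in K27M, against 65.4 and 48.9% of all wild-type H3K4me3 intervals. At the other CpG-island promoters the shares were 88.5 and 78.2%. Of the 1159 members with H3K4me3 alone in K27M, 465 carried H3K27ac in both genotypes, 125 in wild type only, 50 in K27M only and 519 (44.8%, 41.9 to 47.7) in neither. Where wild type had none, K27M H3K27ac was found at 50 of 569 members with H3K4me3 alone (8.79%, 6.59 to 11.4) and at 10 of 450 with both marks (2.22%, 1.07 to 4.05), against 8.93% (7.30 to 10.8) of the other CpG-island promoters and 2.83% of all wild-type H3K4me3 intervals without it. Members partly covered that lost H3K27me3 gained it at 21 of 129 (16.3%, 10.4 to 23.8). Among members wholly inside the shares were 29 of 440 (6.59%, 4.46 to 9.33) and 7 of 414 (1.69%, 0.682 to 3.45). Without wild-type H3K27ac, the members with H3K4me3 alone had a median H3K4me3 ratio of 0.46 and those with both marks 0.42.

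**Figure D5:**
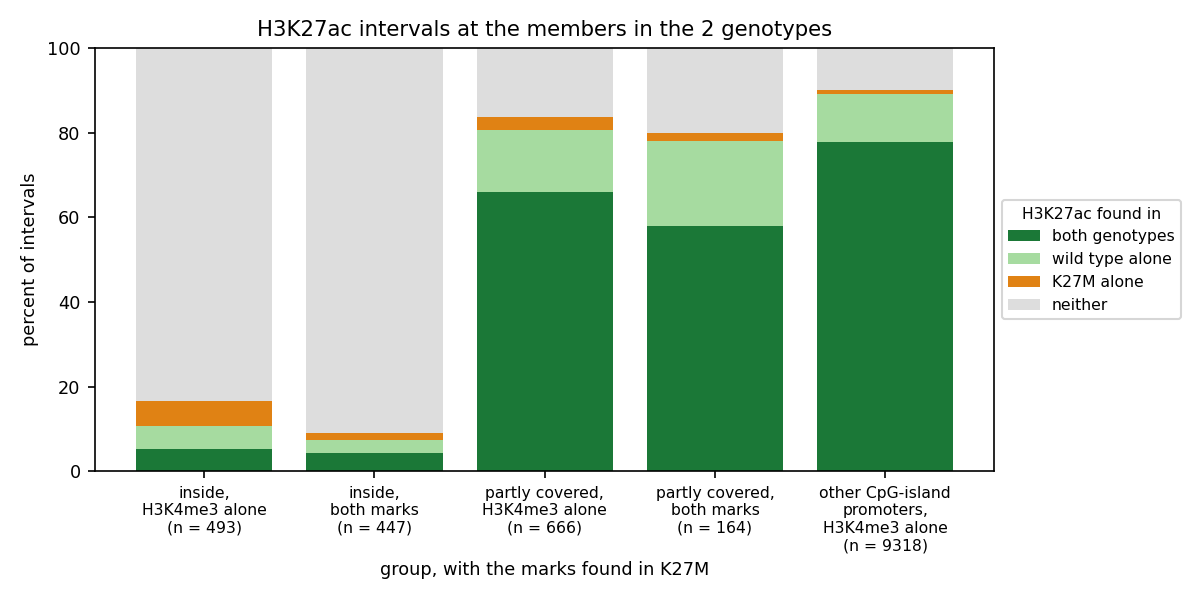
Bars give the percent of intervals with an H3K27ac interval in both genotypes, in one or in neither, for members wholly inside or partly covered by wild-type H3K27me3, split by their marks in K27M, beside other CpG-island promoter intervals with H3K4me3 alone in K27M. H3K27ac in K27M alone took 5.88% of the members wholly inside that lost H3K27me3 and 1.57% of those that kept both marks.

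H3K27ac was also lost. Of 751 members that carried it in wild type 172 (22.9%, 19.9 to 26.1) had no K27M interval, against 12.8% (12.1 to 13.5) of the other CpG-island promoters and 26.7% of all wild-type H3K4me3 intervals with H3K27ac. Wild-type H3K27ac was weaker at these members, with a median density of 34.17 against 40.35 at the other CpG-island promoters, and was not matched. Of the 86 members wholly inside that carried it 41 lost it (47.7%, 36.8 to 58.7). The loss took 125 of 590 members with H3K4me3 alone (21.2%) and 47 of 161 where both marks were kept (29.2%, 22.3 to 36.9). At the 579 members with an interval in both, the median log2 ratio of H3K27ac was 0.20 against 0.05 over all 15484 such wild-type H3K27ac intervals and 0.08 at the other CpG-island promoters, and 8 members were at least 2-fold higher (1.38%, against 1.00% of all H3K27ac intervals) and 0 at least 2-fold lower (against 0.0969%). The direction turned with the measure and the scale. The median was -0.10 for the highest density, -0.36 with equal 5th percentiles and 1.30 with equal sums. Over all wild-type H3K27ac intervals the last 2 scalings gave -0.51 and 1.15. The K27M list held 20040 H3K27ac intervals and the wild-type list 39018, of which 39.7% were met, and the 5th percentile of density was 25.5 in K27M and 17.0 in wild type, so weak H3K27ac could be called in wild type alone.

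Among named genes H3K27ac in K27M alone was densest at Tlcd5 (38.6), Prickle1 (37.6), Unc13b (37.5), Ankrd44 (36.3), Amigo2 (35.1) and Ptpru (34.7). Prickle1 acts in planar cell polarity, Unc13b primes synaptic vesicles, Amigo2 is a neuronal adhesion protein and Ptpru a receptor phosphatase. At Ptpru H3K27me3 had stood at 11.7 over 14399 bp in wild type and had no K27M interval, and H3K4me3 was 70.2 and 99.7. At Amigo2 H3K27me3 was kept (6.34 and 2.98). Dense H3K27ac in wild type alone was found at Farsa (55.4), Fbrsl1 (51.1), Gbf1 (50.5), Ddx18 (44.3) and Stpg2 (41.2). All but Fbrsl1 among these were covered by H3K27me3 in part only, and all had lost H3K27me3 in K27M. Farsa encodes a subunit of phenylalanyl-tRNA synthetase and Ddx18 an RNA helicase, both housekeeping functions.

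Transcription factor genes were spread over all 4 outcomes. For each list here and below the background is the share over all members. H3K4me3 alone, both marks, H3K27me3 alone and neither took 62.7, 33.1, 2.33 and 1.89% of all members. Of members wholly inside H3K27me3 they took 48.5, 44.0, 4.23 and 3.25%. Genes were assigned by start sites within 1000 bp for 1350 members and otherwise by the ends of gene spans for 368, whose strand is not given. Of the 26 members at homeobox genes outside the Hox clusters 8 had H3K4me3 alone in K27M, 12 both marks, 5 H3K27me3 alone and 1 neither, so 17 (65.4%) kept H3K27me3. Of these 26 members 23 lay wholly inside H3K27me3, where 48.2% of all members kept it. Vax2, a factor of the ventral eye and forebrain, had H3K27me3 at 20.9 in wild type and 16.3 in K27M with H3K4me3 at 66.5 and 76.1. Gbx1 and Mnx1, factors of spinal cord neurons, kept only H3K27me3, at 12.2 and 11.3 and at 19.8 and 16.1. The Hox clusters gave 0 members, and 4 of their 39 genes carried any wild-type H3K4me3.

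The 6 members at forkhead genes, 4 of them wholly inside H3K27me3, numbered 1 with H3K4me3 alone and 5 with both marks. Of 13 at bHLH genes, 12 of them wholly inside, 6 had H3K4me3 alone, 5 both marks, 1 H3K27me3 alone and 1 neither. Neurog2, a proneural factor, had H3K27me3 at 13.9 in wild type and 16.6 in K27M and H3K4me3 at 72.2 and 94.0. Atoh8 had 15.7 and 18.1, with H3K4me3 at 58.7 and 52.0. The 3 members at Gata2, a factor of blood and of midbrain neurons, and Eomes, a factor of intermediate neuronal progenitors, all had H3K4me3 alone. At Gata2 H3K27me3 stood at 8.76 in wild type and H3K4me3 at 27.4 and 41.7 in its 2 intervals, which K27M held as 1 interval. Zinc-finger developmental factors had 11 members, 6 of them wholly inside. Of the 11, 8 had H3K4me3 alone and 1 (Sp8, 9.09%, against 35.4% of all members) had H3K27me3 in K27M. Bcl11b, a factor of cortical projection neurons, had H3K27ac in K27M alone at 1 of its 2 members.

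Signalling genes had members with and without H3K27me3 in K27M in each pathway listed. Of 18 members at Wnt pathway genes, 16 of them wholly inside H3K27me3, 13 kept both marks (against 33.1% of all members and 44.0% of those wholly inside), 4 had H3K4me3 alone and 1, Sfrp2, neither. Wnt9a, a Wnt ligand, had H3K27me3 at 22.4 in wild type and 4.17 in K27M, and Wnt11, a ligand of noncanonical signalling, 16.0 and 10.8. Of 14 members at BMP and TGF-beta genes, 8 of them wholly inside, 8 had H3K4me3 alone and 6 both marks. Among them Chrd, the BMP antagonist chordin, had lost H3K27me3 and had H3K27ac in K27M alone. At Gdf6, a BMP-type ligand, H3K27me3 was 16.5 and 12.3. Of 11 members at FGF and Hedgehog genes, 9 of them wholly inside, 4, 5, 2 and 0 had H3K4me3 alone, both, H3K27me3 alone and neither. Both members at Shh kept both marks, with H3K27me3 at 11.1 and 7.67. Of 24 at axon guidance genes, 14 of them wholly inside, 15 had H3K4me3 alone and 9 both (37.5%), near the share of all members. Ntng1 and Plxna1, a netrin-like adhesion protein and a semaphorin receptor, each had a member with H3K27ac in K27M alone.

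Members at channel genes had H3K4me3 alone or both marks, and those at neurotransmitter receptor genes were found in all 4 outcomes. Of 26 members at potassium channel genes 13 had H3K4me3 alone and 13 both marks. Of these 26 members 23 lay wholly inside H3K27me3, where 48.2% of all members kept it. At Kcnh3, an EAG-family channel of the forebrain, H3K27me3 was 24.5 in wild type and 12.3 in K27M. Of 10 at calcium and sodium channel genes, 8 of them wholly inside, 7 had H3K4me3 alone and 3 both. Of 26 at neurotransmitter receptor genes, 22 of them wholly inside, 11, 12, 1 and 2 had H3K4me3 alone, both marks, H3K27me3 alone and neither. Chrna7, the alpha-7 nicotinic receptor, had lost H3K27me3 (4.27) with H3K4me3 at 46.1 and 87.5. Adra2b, an adrenergic receptor, kept it at 19.6 and 7.30. Kcnk1, a tandem-pore channel, was the only member of these 3 lists with H3K27ac in wild type alone, and 0 had it in K27M alone.

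Of 12 members at genes of mature neurons 5 had H3K4me3 alone, 5 both marks, 1 (Slc32a1, the vesicular GABA transporter) H3K27me3 alone and 1 (Calb2, calretinin) neither. Of these 12 members 10 lay wholly inside H3K27me3. Gad1, which makes GABA, lost H3K27me3 (4.48) and also H3K27ac (20.4 in wild type). Of 9 at collagen and laminin genes, 8 of them wholly inside, 4 had H3K4me3 alone, 4 both and 1 neither. The promoter between Col4a1 and Col4a2 had H3K27ac in K27M alone at 25.3. Trp73, a p53 relative, kept H3K27me3 (15.5 and 9.64), and Cdkn1c, an imprinted CDK inhibitor, lost it (11.7). Of the Polycomb genes Cbx2 and Pcgf2 kept both marks and Pcgf3 lost H3K27me3. No neural stem cell or housekeeping gene of the lists had a member, with 0 of 25 and 0 of 27 genes. The lists were short, and genes of housekeeping function outside them did have members. Among these were Farsa and Ddx18, named above, and Rpl5, with wild-type H3K4me3 at 160.6. Nothing is called particular to a list, since no list was tested.

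Short sequence motifs were counted in the promoters of members inside H3K27me3 and of those at its edge. The ETS-type motif CCGGAAGT, searched on both strands, was found in 1.96% of the 511 promoters in members wholly inside H3K27me3 and in 74 of the 739 in members covered in part, against 10.3% of promoters in other CpG-island promoter intervals and 3.89% of all. The CRE motif TGACGTCA was found in 2.54 and 5.41%, against 3.52 and 1.79%. The GC box GGGCGG was found in 73.8 and 71.5%, against 70.4 and 35.7%. CACGTG stood at 11.2 and 10.4%, TATAAA at 4.70 and 5.01%, CCAAT at 33.9 and 37.2% and the NRF1 motif at 0.979 and 2.44%. Among promoters that lost H3K27me3, CCGGAAGT was found in 10.4% of the 548 with wild-type H3K27ac and in 3.72% of the 323 without, near the 4.09% of the 367 that kept both marks. These are matches of letters in 300 bases and no measure of binding.

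The edges of the rule were as follows. The longest member had 4867 bp and the shortest of the 3 intervals left out for length 5117 bp. The smallest overlap with H3K27me3 was 1 bp and 181 members had an overlap under 200 bp, while 929 CpG-island promoter intervals that are not members lay within 1000 bp of a wild-type H3K27me3 interval. Of the members 39 lay on chromosome 18, and these are counted but not named.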

How the data were processed

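Chromatin immunoprecipitation libraries of mouse neuronal stem cells were compared as 1 library per genotype and mark. Groups came from the sample titles. The submitters' processing notes name BWA, SICER and the build mm10. Their versions, which tool called which mark, the thresholds and whether the 2 inputs entered the calls were not given in the sources used here. Per library the authors deposited 1 interval list, giving each interval its mean and its peak tag density (a coverage signal) and its promoter and CpG-island counts. The inputs were not used here. From these lists, overlaps of 1 bp or more were counted, exact binomial 95% limits computed, and log2((K27M + 1)/(wild type + 1)) taken over the interval with the longest overlap, with pandas 2.3.3, numpy 2.4.6 and scipy 1.17.1. The overlap counts were tested on simulated intervals. A 2-fold difference served as the call, and no test was possible with 1 library a group. Total tags are unknown, so the error that depth brings could not be measured.

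Gene names came from RefSeq start sites within 1000 bp, or else from the ends of gene spans. In each outcome the members with the densest wild-type H3K27me3 or H3K4me3 were named, then the extreme ratios, the densest H3K27ac found in 1 genotype, and the extreme members of each gene list, leaving out predicted genes and a few genes that are not reported here. Other genes named beside these were chosen after their values were seen. The members and lists were chosen with earlier results of these data known. Alternatives varied the overlap, the length, the density floor, the scale and the pseudocount. Joining of wild-type intervals, members wholly inside H3K27me3 and leaving out chromosome 15 were added after seeing the data.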

Additional observations from a re-analysis of the deposited data

How the results depend on the processing

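The outcomes H3K4me3 alone, both marks, H3K27me3 alone and neither took 62.7, 33.1, 2.33 and 1.89% of members, in that order below. They took 70.7, 22.9, 3.14 and 3.301% when a K27M interval had to cover at least 50% of the member, 54.9 and 41.9% when it could lie within 1000 bp, and 52.8, 40.9, 3.49 and 2.76% when wild-type H3K27me3 had to cover as much. With wild-type H3K27me3 at or above its median density the first 2 were 58.2 and 37.7%, and with 1 density floor the first 3 were 78.1, 18.2 and 1.18%. They were 57.1, 36.9, 3.29 and 2.68% below 2000 bp, 51.9, 41.0, 3.92 and 3.19% without wild-type H3K27ac, and 48.5, 44.0, 4.23 and 3.25% wholly inside H3K27me3. H3K27ac in wild type and K27M (40.6 and 34.6%) became 9.25 and 3.19% with that coverage of the member, 44.2 and 39.8% within 1000 bp, 16.5 and 13.8% when wild-type H3K27me3 covered as much, and 8.47 and 7.97% wholly inside. The median H3K4me3 ratio (0.42) was 0.52 for the highest density, 0.39 with a pseudocount of 5, 0.26 with equal 5th percentiles and 0.013 with equal sums. The median H3K27ac ratio (0.20) turned to -0.10 for the highest density and -0.36 with equal 5th percentiles, and was 1.30 with equal sums. The median H3K27me3 ratio (-1.14) was -1.57, -0.72, -0.46 and 1.48 under those 4 choices. Equal sums also turned the H3K27me3 ratios of Lingo3 (0.0078), Ccdc177 (0.029), Shisa8 (0.29), Epha10 (0.13) and Tmem132e (0.22). Leaving out chromosome 15 moved none of these shares and medians beyond its counting limits, and lifting the limit on length, tried for the 4 outcomes, moved none of them. The cause of these differences was not tested. No paired analysis was possible because each group has 1 library. Unknown depth leaves lost intervals and intervals below the calling limit indistinguishable.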
